A study of Mus musculus with 6 samples.

Results

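FOXC2 peaks at promoters that were called after adriamycin (ADR) and had no counterpart in controls are described here. The members were chosen by where the called peaks of the ADR and PBS lists lay and by the annotated transcript starts. A peak of the pooled ADR list counted when it shared no base with any peak of the pooled PBS list and its summit lay from 1 kb upstream to 100 bp downstream of any of 141767 transcript starts (GENCODE M21, GRCm38). This held for 1245 of 40067 ADR peaks, hereafter ADR-only promoter peaks. Both conditions used adult mT/mG mice, so ADR and PBS mice alike carried this membrane reporter together with a Cre driven by a podocyte promoter. ADR at 18 mg/kg was injected on days 0 and 7 in the ADR group, the PBS group received vehicle, and podocytes were sorted by FACS on day 9. FOXC2 ChIP-seq was performed on 3 samples per condition, and the deposited list of each condition pools its samples. Membership is therefore read from 1 list per condition, with no value per sample and no test between conditions, and the read depth behind the lists is unknown.

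FOXC2 is a forkhead transcription factor that binds short A-rich sites and is needed in podocytes, the cells whose interdigitating foot processes and slit diaphragms form the outer layer of the kidney filter. ADR is a topoisomerase poison that injures podocytes and is used in mice as a model of focal segmental glomerulosclerosis. A promoter is the stretch around a transcription start. Promoters of broadly expressed genes usually lie in CpG islands, whereas cell type-specific and alternative starts often lie in CpG-poor DNA. WT1 and LMX1B are transcription factors that podocytes require, whereas TEAD, AP-1 and KLF proteins act in many cell types.

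Sequences from 7 of these peaks are shown because the comparisons below turn on which motif letters lie under the summits. Each is the GRCm38 RefSeq sequence from 100 bp before to 100 bp after the summit, written on the strand of the start it was assigned to. Capitals mark exact matches, on either strand, to the forkhead (*Gm47320*, *Lima1*), LMX1B (*Apbb2*, *Gm47116*), TEAD (*Gm40578*, *Gm32200*) or WT1 (*Pogz*) letters. *Gm32200* also holds a WT1 match and a pair of overlapping forkhead matches.
Gm47320, chr9:119409372-119409572, minus strand: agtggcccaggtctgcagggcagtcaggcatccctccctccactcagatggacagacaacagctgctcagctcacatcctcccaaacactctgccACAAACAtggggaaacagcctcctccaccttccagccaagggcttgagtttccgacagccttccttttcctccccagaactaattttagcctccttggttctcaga
Lima1, chr15:99784693-99784893, minus strand: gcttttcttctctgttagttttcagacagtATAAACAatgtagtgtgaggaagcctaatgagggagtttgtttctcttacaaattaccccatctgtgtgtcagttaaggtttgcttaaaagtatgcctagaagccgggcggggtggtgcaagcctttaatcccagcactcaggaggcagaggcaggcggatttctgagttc
Apbb2, chr5:66338195-66338395, minus strand: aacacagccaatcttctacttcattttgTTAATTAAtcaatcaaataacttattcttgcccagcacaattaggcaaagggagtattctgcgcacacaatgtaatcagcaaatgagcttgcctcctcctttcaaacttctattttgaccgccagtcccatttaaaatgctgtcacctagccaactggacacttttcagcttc
Gm47116, chr12:99063620-99063820, minus strand: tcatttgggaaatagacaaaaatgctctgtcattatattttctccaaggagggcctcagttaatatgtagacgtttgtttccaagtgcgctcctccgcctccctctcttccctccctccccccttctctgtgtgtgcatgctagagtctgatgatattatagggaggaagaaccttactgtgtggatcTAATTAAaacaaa
Gm40578, chr12:111500369-111500569, minus strand: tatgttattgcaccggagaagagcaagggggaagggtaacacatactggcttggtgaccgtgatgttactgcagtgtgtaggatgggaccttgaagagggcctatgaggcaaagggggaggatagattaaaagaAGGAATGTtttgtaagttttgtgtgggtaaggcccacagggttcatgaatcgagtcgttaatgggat
Gm32200, chr1:191465242-191465442, minus strand: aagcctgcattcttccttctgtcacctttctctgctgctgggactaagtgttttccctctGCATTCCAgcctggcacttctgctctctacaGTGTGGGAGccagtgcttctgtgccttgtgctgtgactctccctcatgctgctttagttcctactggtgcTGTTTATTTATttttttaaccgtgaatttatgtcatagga
Pogz, chr3:94863280-94863480, plus strand: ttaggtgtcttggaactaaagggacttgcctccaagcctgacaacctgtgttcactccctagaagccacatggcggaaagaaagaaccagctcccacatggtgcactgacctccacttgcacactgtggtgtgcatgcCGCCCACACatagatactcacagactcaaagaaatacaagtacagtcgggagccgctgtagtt
The *Apbb2* capitals are a pair of overlapping LMX1B matches. None of these windows touches an annotated exon. In the *Lima1* window 39.3% of the bases are soft-masked as repeats in the RefSeq sequence, the highest share among those shown.

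The strongest ADR-only promoter peak had a fold of 32.0 over the local control, and fold is used below as the authors' measure of peak height. Its summit lay at -84 bp from the start of the processed pseudogene *CT010445.2*, inside an intron of *Memo1* (negative positions are upstream of the start). The peak at an internal start of *Gm28040*, an annotated coding gene that overlaps the kisspeptin gene *Kiss1*, had a fold of 31.6 with its summit at -528 bp. *Gm47320*, an antisense transcript within an intron of the activin receptor gene *Acvr2b*, followed with a fold of 29.6, and the intergenic lincRNA *Gm14168* with 27.3. At *Rragc*, which encodes a GTPase of amino acid sensing by mTORC1, the fold was 23.8, and this peak lay at the start of *4930535I16Rik* too. Thus 4 of the 15 strongest peaks lay at a pseudogene or non-coding start and 11 at a start of a coding gene.

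The other peaks among the 15 strongest lay at *Iqgap3*, a scaffold of the actin cytoskeleton (fold 23.1), *Ptbp1*, a splicing repressor (22.9), the antisense transcript *Gm40578* (22.5), *Apbb2* (21.2), *Sidt2*, a lysosomal membrane protein (20.8), *Pogz* (20.6), *Ntrk3*, the neurotrophin-3 receptor (20.5), *Lima1*, the actin-binding protein EPLIN (20.3), *Eri3* (19.8) and *Synpr*, a synaptic vesicle protein (19.1). Their position was mostly internal to genes. Of the 15 summits, 10 lay in an intron of a coding gene, 3 in an exon and 2 outside coding genes. The *Ntrk3* summit was 114194 bp and the *Synpr* summit 169251 bp from the nearest start of a coding gene record, although each lay at the start of another annotated transcript. A forkhead match lay within 100 bp of 3 of the 15 summits, none of the 6 main motifs within 100 bp of 5, and 0 of the 15 windows were CpG-rich.

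These 15 were picked for a high ADR fold, so their order against the PBS peaks nearby is not read as a difference. At *Lima1* a PBS peak with a fold of 58.8 lay 2234 bp away, higher than the ADR-only peak itself. At *Ptbp1* a PBS peak with a fold of 4.13 lay 17 bp from the ADR peak, and at *Rragc* a PBS peak with a fold of 5.49 lay 215 bp away, and both peaks counted as ADR only across such a short gap. By contrast the *Eri3* peak was 76556 bp from any PBS peak.

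**Figure D1:**
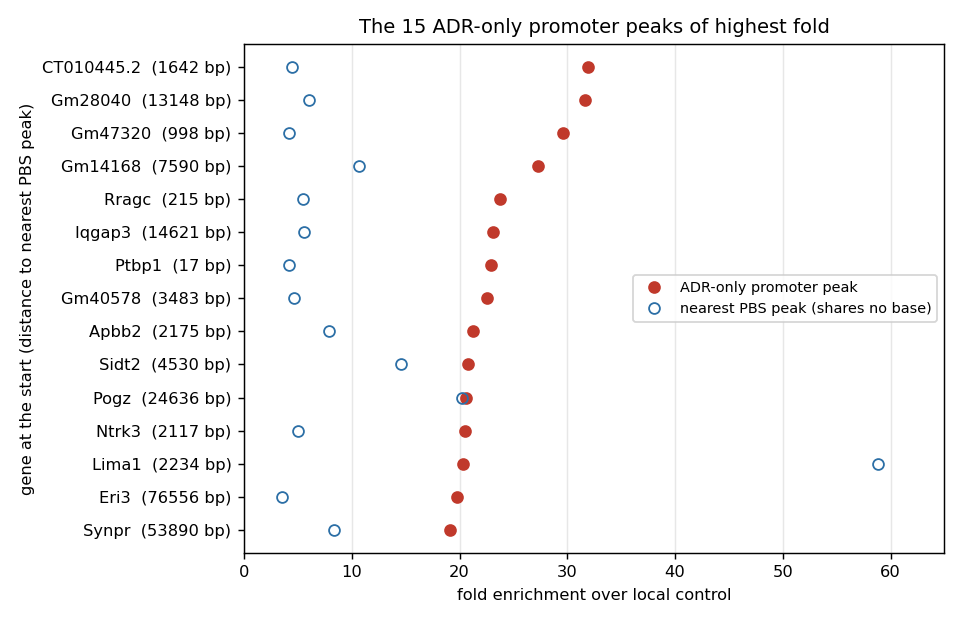
Fold over local control of the 15 ADR-only promoter peaks of highest fold (filled) and of the PBS peak nearest to each (open), with the distance between them in brackets beside the gene. The peaks were chosen for their ADR folds, which run from 19.1 to 32.0, so their order against the PBS peaks is not read as a difference. The PBS peak near *Lima1* is higher (58.8).

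Most members were low. The median fold was 5.10 (quartiles 4.32 and 6.48, range 2.67 to 32.0) and the median width 254 bp. The 2379 PBS-only promoter peaks, selected by the mirror rule, had a median fold of 4.98 and a median width of 244 bp. The 10592 ADR promoter peaks that shared at least 1 base with a PBS peak, hereafter shared promoter peaks, had a median fold of 8.15 and a width of 465 bp. Folds of 10 or more were seen in 98 of the 1245 ADR-only promoter peaks (7.87%), 58 of the PBS-only ones (2.44%) and 3951 of the shared ones (37.3%). These folds come from the calls that chose the members and are given without a test.

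**Figure D2:**
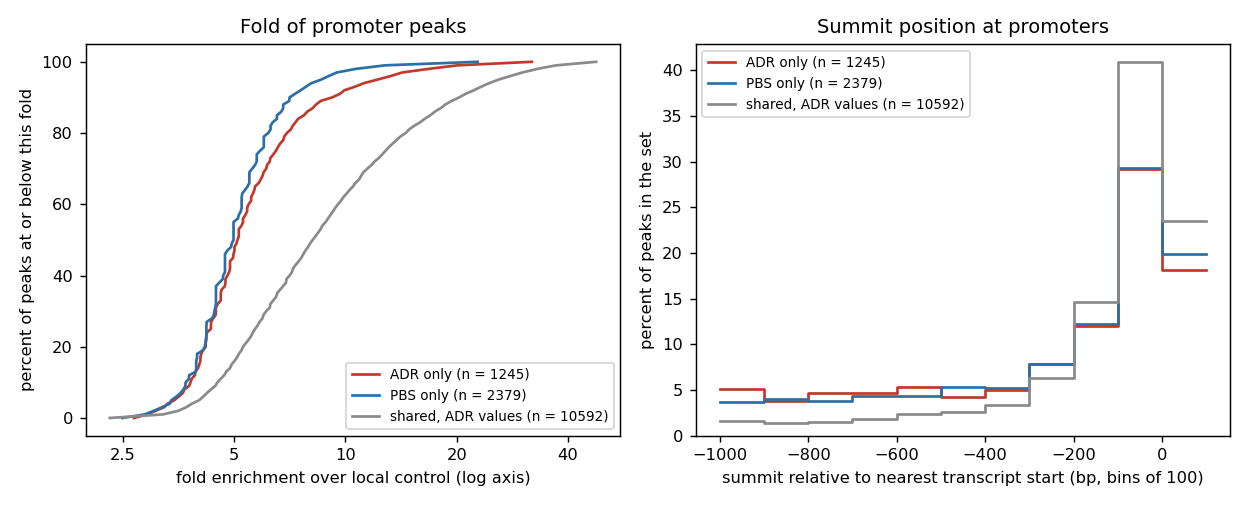
Left, cumulative percent of peaks by fold (log axis) for ADR-only, PBS-only and shared promoter peaks; right, percent of summits per bin of 100 bp relative to the nearest transcript start. The ADR-only and PBS-only fold curves lie close together up to the median (5.10 and 4.98) and far left of the shared curve (8.15), and more ADR-only than shared summits lie over 500 bp upstream (23.5% and 8.64%).

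Of all ADR peaks, 32.3% shared no base with a PBS peak, but at promoters this share was 10.5% (95% Wilson interval 9.98 to 11.1), against 18.2% of PBS promoter peaks with no ADR counterpart. Intervals here cover counting error only. Promoters took up 9.61% of ADR-only peaks, 17.5% of PBS-only peaks and 39.1% of shared ADR peaks. The gap to the nearest PBS peak started at 4 bp and had a median of 4782 bp. It was at most 1 kb for 381 members (30.6%) and over 10 kb for 453 (36.4%). Just inside the rule lay *Mtdh* (fold 4.82, 4 bp from a PBS peak), *Mgrn1* (4.87, 6 bp) and *Ado* (4.32, 9 bp). Just outside were *Klc4* (3.77), *Smad3* (3.997) and *Tmem179b* (2.91), whose peaks shared 4, 7 and 12 bp with a PBS peak. At the upstream limit, *Pfn3* (fold 5.28, summit at -998 bp) was inside and *Myo10* (8.70, -1002 bp) outside, and at the downstream limit *Tmem143* (6.24, 98 bp) was inside and *Chd3* (8.02, 102 bp) outside.

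The word promoter needs a qualification for this set. Only 489 of 1245 summits (39.3%, 36.6 to 42.0) lay at the start of a coding gene's full record, against 44.9% of PBS-only and 62.4% of shared promoter peaks. The differences were -5.57 percentage points (95% interval -8.92 to -2.19) and -23.1 points (-25.9 to -20.2). Other starts made up the rest. A further 510 members (41.0%) lay only at another annotated start of a coding gene, and 246 (19.8%) only at a non-coding or pseudogene start. ADR-only promoter peaks more often had their summit in an intron of a coding gene (37.8%) than PBS-only (30.9%) and shared ones (20.5%), with differences of 6.89 points (3.64 to 10.2) and 17.3 points (14.5 to 20.1). They also lay farther upstream. The summit was over 500 bp upstream of the nearest start in 293 members (23.5%), against 20.2% of the PBS-only ones (difference 3.36 points, 0.543 to 6.25) and 8.64% of the shared ones (14.9 points, 12.6 to 17.4).

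Height differed among members by the kind of start. As the folds come from the calls that chose the members, this is a description. The 489 peaks at gene record starts had a median fold of 4.87 and 10 of them (2.04%) reached a fold of 10. At other coding starts the median was 5.28, with 58 of 510 (11.4%) at 10 or more, and at non-coding and pseudogene starts 5.43, with 30 of 246 (12.2%). Among PBS-only peaks the shares at a fold of at least 10 were 1.78%, 2.81% and 3.31% in the same order, and among shared peaks 36.6%, 38.3% and 38.6%. The 471 members in introns had a median fold of 5.49, those in exons 4.86 and those outside coding genes 5.02.

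ADR-only promoter peaks were mostly CpG-poor. A window of 250 bp to each side of the summit was called CpG-rich when its GC content was at least 50% and its observed over expected CpG at least 0.6. By this measure 474 members (38.1%, 35.4 to 40.8) were CpG-rich, against 39.3% of PBS-only and 74.2% of shared promoter peaks. The difference from the shared peaks was -36.2 points (-38.9 to -33.3), and that from the PBS-only peaks was -1.23 points with an interval from -4.54 to 2.12 that includes 0. This last value depended on the processing. It was -20.04 points among the 20000 peaks of smallest q in each list and 3.92 points when only PBS summits within 200 bp counted, both with intervals that exclude 0. It also differed by kind of start. At gene record starts, ADR-only peaks were CpG-rich more often than PBS-only ones (61.1% and 50.6%, difference 10.5 points, 5.22 to 15.7), whereas at other coding starts they were so less often (27.3% and 35.0%, difference -7.73 points, -12.6 to -2.67). At non-coding starts the difference was -5.22 points (-10.8 to 0.860).

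The strong members were almost all CpG-poor. Of the 98 with a fold of at least 10, 4 were CpG-rich, against 470 of the 1147 lower ones (41.0%). The 771 CpG-poor members had a median fold of 5.42 and a median position of -246 bp, and the 474 CpG-rich ones a median fold of 4.73 and a median position of -39 bp. PBS-only strong peaks were mostly CpG-poor too, with a fold of at least 10 in 49 CpG-poor and 9 CpG-rich peaks (3.39% and 0.963%). Shared CpG-poor and CpG-rich peaks had median folds of 8.14 and 8.15.

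Motifs were then compared, as sequence was no part of the rule. Exact matches on both strands were counted within 100 bp of the summit. The forkhead letters were a purine, a pyrimidine, AAA, a pyrimidine and A. For LMX1B they were TTAATTA or TAATTAA, each the reverse complement of the other, and for TEAD a purine, CATTCC and A or T. The AP-1 letters were TGACTCA or TGAGTCA, and those of WT1 were G, any base, G, G or T, GGG, A or C, and G. For KLF they were GGG, C or T, G, G or T, and GG, which can overlap WT1 matches and the GC box GGGCGG. In windows of the same length centred at -112 bp, the members' median position, at every coding gene, 19.2% held forkhead letters, 2.26% LMX1B, 2.71% TEAD, 3.25% AP-1, 15.5% WT1 and 28.5% KLF letters. A match describes the letters in a window and not a bound site.

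Forkhead letters were found at 255 ADR-only promoter peaks (20.5%, 18.3 to 22.8), against 13.1% of PBS-only and 9.97% of shared promoter peaks. The differences were 7.37 points (4.79 to 10.03) and 10.5 points (8.28 to 12.9). The strict form GTAAACA gave 3.53%, 2.19% and 1.77%, with differences of 1.35 points (0.234 to 2.63) and 1.76 points (0.828 to 2.96). Yet the ADR-only share of the looser letters was close to that of all coding promoters (19.2%). It was below the 26.1% in windows 1 kb to either side of the same summits. For the looser letters it was thus above that of the other FOXC2 promoter peaks, but not above that of neighbouring DNA. ADR-only peaks away from promoters carried the looser letters in 38.4% of cases, with 31.0% in their flanks. For the strict form, the members' 3.53% (2.64 to 4.71) stood beside 2.97% in their flanks and 2.09% of all coding promoters.

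LMX1B letters lay at 42 members (3.37%, 2.51 to 4.53), against 0.799% of the PBS-only and 0.519% of the shared ones, with differences of 2.57 points (1.60 to 3.76) and 2.85 points (1.97 to 4.02). The flanking windows of the members held them in 2.65% of cases. ADR-only peaks away from promoters held LMX1B letters more often, in 7.26% of cases (members minus these -3.89 points, -4.88 to -2.64). TEAD letters lay at 68 members (5.46%), against 3.70% of PBS-only and 3.09% of shared ones, with differences of 1.76 points (0.357 to 3.33) and 2.37 points (1.19 to 3.81), with 3.33% in the members' flanks. The difference in TEAD letters from the PBS-only peaks was 1.48 points (-0.0400 to 2.996) after standardising for GC content, and that from the shared peaks was 0.669 points (-0.731 to 2.07). Both intervals include 0. TEAD letters too were more frequent in ADR-only peaks away from promoters, at 11.3% (members minus these -5.89 points, -7.16 to -4.37).

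AP-1 letters went the other way. They lay at 21 ADR-only promoter peaks (1.69%, 1.11 to 2.56) and at 212 PBS-only ones (8.91%, 7.83 to 10.1), which differed by -7.22 points (-8.57 to -5.83). The ADR-only share was lower than in the flanks (2.77%) and differed from the shared peaks (2.43%) by -0.740 points, within an interval of -1.40 to 0.181. ADR-only peaks away from promoters had a low AP-1 share as well, at 2.25% (members minus these -0.568 points, -1.21 to 0.346). The PBS-only share was above that in the flanks of the PBS-only peaks (3.19%) and at all coding promoters (3.25%). CTCF letters, searched by the usual core of its motif, lay at 0.562% of the members and 2.19% of PBS-only promoter peaks (difference -1.62 points, -2.35 to -0.838). The CTCF share was 0.689% in shared promoter peaks (difference -0.127 points, -0.466 to 0.483) and 0.456% at all coding promoters.

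GC-rich motifs were less frequent in ADR-only than in shared promoter peaks, while their differences from PBS-only peaks depended on the processing. WT1 letters lay at 18.6% of ADR-only, 21.4% of PBS-only and 32.3% of shared peaks. The difference from the shared peaks was -13.7 points (-16.0 to -11.3) and that from the PBS-only peaks -2.72 points (-5.39 to 0.0486), although it excluded 0 under 10 of 17 alternatives, for instance at -5.17 points for basic coding transcripts. KLF letters lay at 22.2%, 22.6% and 35.8%, with differences of -0.366 points (-3.18 to 2.53) and -13.6 points (-16.0 to -11.0). The KLF difference from PBS-only peaks became 5.38 points at coding gene records and -6.73 points with a −log10 q of at least 5 for ADR peaks only. For the GC box the shares were 33.2%, 32.9% and 57.9%. Unlike the looser forkhead letters, both WT1 and KLF letters were more frequent under the summits of the members than in their flanks (6.27% and 8.96%). The same held for the GC box (7.31% in the flanks). Against all coding promoters, the members' share was higher for WT1 letters (15.5% there) but lower for KLF letters (28.5% there).

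**Figure D3:**
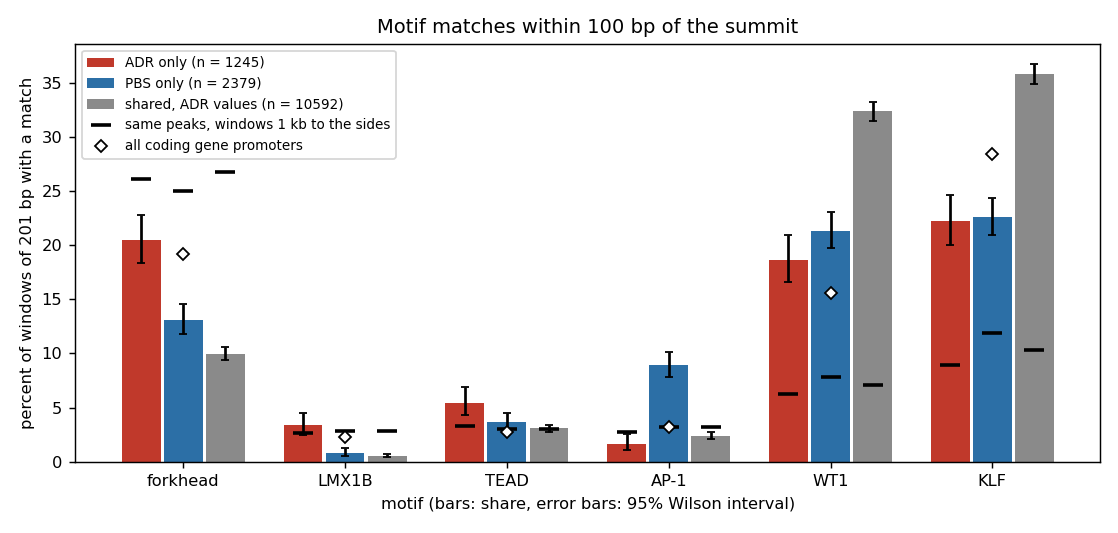
Percent of windows within 100 bp of the summit with a match to each of 6 motifs, for ADR-only, PBS-only and shared promoter peaks, with 95% Wilson intervals; dashes give the same peaks' windows 1 kb to the sides and diamonds all coding gene promoters. Forkhead and LMX1B bars are highest in ADR-only peaks, AP-1 is highest in PBS-only peaks (8.91%), and all 3 forkhead bars lie below their dashes.

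Further motifs of the 18 searched were read the same way. NRF1 letters, by the usual core, lay at 4.90% of ADR-only, 3.74% of PBS-only and 9.27% of shared peaks, and ETS letters, likewise, at 3.13%, 2.52% and 5.59%. Both differed from the shared peaks, by -4.37 points (-5.58 to -2.92) and -2.46 points (-3.40 to -1.26). TATAAA lay at 4.58%, 3.99% and 2.64%, a difference of 1.93 points (0.857 to 3.27) from the shared peaks. The members' share of TATAAA was nonetheless below that in their flanks (11.6%) and at all coding promoters (9.49%). The repeat unit of the p53 site, of which a full site holds a pair, lay at 7.07% of members, against 5.51% and 4.49%, differences of 1.56 points (-0.0690 to 3.34) and 2.57 points (1.22 to 4.18). This unit lay at 6.10% of the members' flanks and 5.45% of all coding promoters. E-box letters (CACGTG) lay at 6.59%, 6.14% and 7.97%, a difference of -1.38 points (-2.74 to 0.214) from the shared peaks, which includes 0. The intervals are not adjusted for the number of motifs.

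The forkhead and LMX1B differences from PBS-only peaks were seen at internal and non-coding starts. At gene record starts, 12.3% of ADR-only and 11.3% of the PBS-only peaks held forkhead letters (difference 0.930 points, -2.39 to 4.59). At other coding starts the shares were 23.3% and 13.8%, a difference of 9.50 points (5.27 to 13.9), and at non-coding starts 30.9% and 16.1%, a difference of 14.8 points (8.18 to 21.6). LMX1B letters showed the same order, with 1.23% and 0.843% at gene record starts, 3.53% and 0.900% at other coding starts, and 7.32% and 0.473% at non-coding starts, where the difference was 6.84 points (3.93 to 10.8). AP-1 letters were instead fewer than in PBS-only peaks in all 3 classes, at -5.30 points (-7.17 to -3.22), -8.38 points (-10.6 to -6.15) and -9.68 points (-13.5 to -5.63). Against shared peaks the AP-1 differences were -0.165 points (-1.04 to 1.42), -1.98 points (-2.90 to -0.508) and -1.79 points (-4.01 to 1.37). This split by start was chosen after the data were seen.

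**Figure D4:**
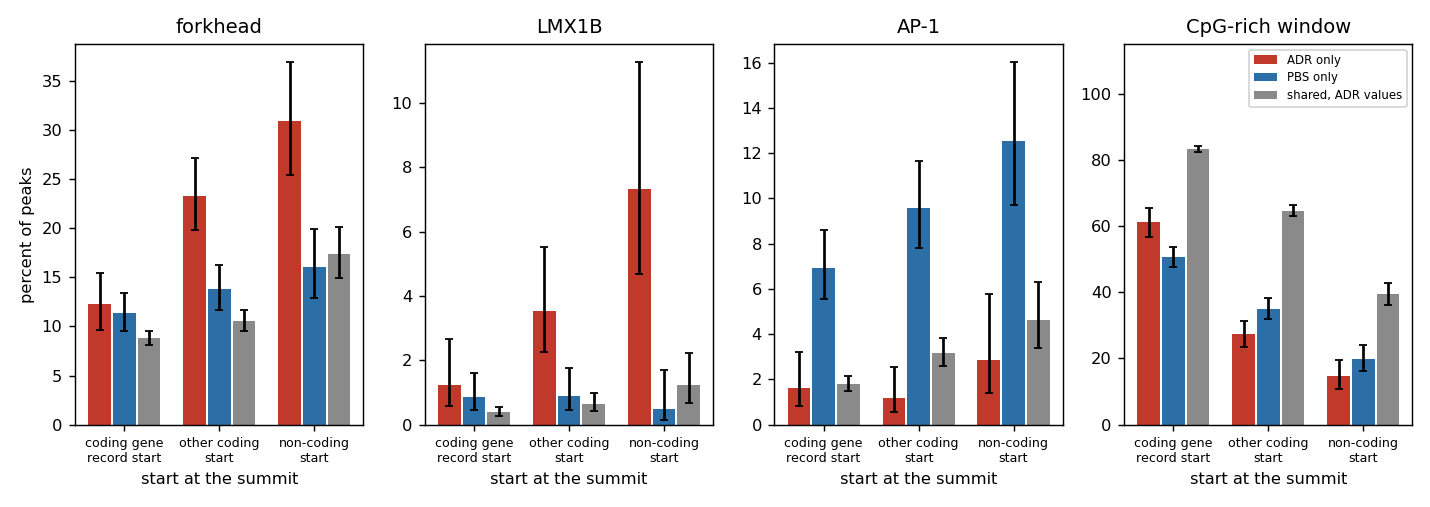
Percent of ADR-only, PBS-only and shared promoter peaks with forkhead, LMX1B or AP-1 letters or a CpG-rich window, by the kind of start at the summit; error bars are 95% Wilson intervals. The ADR-only forkhead bars climb from 12.3% at gene record starts to 30.9% at non-coding starts, while the PBS-only bars stay between 11.3% and 16.1%.

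Among the members, forkhead letters went with height and with CpG content. They lay at 36 of the 98 members with a fold of at least 10 (36.7%, 27.9 to 46.6) and at 19.1% of the rest. The 255 members with a match had a median fold of 5.62 and the 990 without one 5.01. For LMX1B the medians were 7.04 and 5.05, and 12 of the 42 peaks with a match (28.6%) reached a fold of 10. The medians were also higher with than without TEAD letters (5.83 and 5.08) and WT1 letters (5.55 and 5.01). KLF letters ran the other way, with medians of 4.87 with and 5.14 without a match, and for AP-1 they were 4.97 and 5.10. As the folds come from the calls that chose the members, these medians are a description. By CpG class, forkhead letters lay at 28.5% of CpG-poor ADR-only peaks, against 18.01% of CpG-poor PBS-only and 17.8% of CpG-poor shared ones. In the CpG-rich class the shares were 7.38%, 5.56% and 7.25%. Position went along with both, as CpG-rich windows made up 10.6% of members with a summit over 500 bp upstream and 54.5% of those within 100 bp of the start.

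The highest members with forkhead letters, after *CT010445.2*, *Gm47320* and *Lima1*, lay at the lincRNA *Gm32200* (fold 18.4) and the antisense RNA *1700099I09Rik* (17.7). With LMX1B letters they were *Apbb2* (21.2), *Gm47116* (17.7), *CT010502.1* (17.0), the microRNA gene *Mir704* (15.04) and the pseudogene *Gm15732* (14.999). *CT010502.1* and *Mir704* held forkhead letters as well. With TEAD letters they were *Gm40578* (22.5), *Gm32200*, *Usp20*, a deubiquitinase (14.2), *Tmem159* (13.0) and *R3hdml* (11.98). Repeats were rare under the summits. At least 50% of the window was soft-masked in 36 members (2.89%), against 1.93% of PBS-only and 0.878% of shared peaks, and in 4 of the 98 members with a fold of at least 10.

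At the level of genes, 989 coding genes of 21951 (4.51%) had an ADR-only promoter peak, 8.51% had a PBS-only one and 42.4% a shared one. Of the 989, 424 (42.9%) also had a shared peak at some start and 111 a PBS-only one, whereas 515 (52.1%) had no PBS peak at any of their promoters. Conversely, 1068 of the 1868 coding genes with a PBS-only promoter peak (57.2%) had no ADR peak at any promoter. More than 1 ADR-only promoter peak was found at 56 genes, and 3 peaks at 7 genes: *Clic3*, *Tspan15*, *Pth1r*, *Dgkq*, *Slc34a1*, *Jade1* and *Tns1*. *Clic3*, a chloride intracellular channel gene of podocytes, had peaks with folds of 10.6, 4.46 and 3.91 at -981, -42 and 57 bp from its starts. It had no promoter peak in the PBS list. *Pth1r*, the parathyroid hormone receptor, had folds of 7.58, 4.60 and 3.92, likewise with no PBS promoter peak, and *Dgkq*, a diacylglycerol kinase, had 7.06, 5.42 and 4.33. *Tspan15*, a tetraspanin, had 7.88, 5.36 and 4.20 at internal starts besides a shared peak at its outer start with a fold of 8.84 in ADR and 7.27 in PBS.

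At *Tns1*, a focal adhesion protein, and *Jade1*, the peaks were low, with folds of 4.27, 3.92 and 3.14 and of 4.31, 3.92 and 2.78. *Tns1* also had 3 PBS-only promoter peaks (5.75, 4.98 and 6.78), so peaks of one list only lay at its starts in both conditions. Among genes with a pair of ADR-only promoter peaks, the highest folds were at *Apbb2* (21.2 and 3.30), *Myl6b*, a myosin light chain (17.0 and 4.38), and *Pde4c*, a cyclic AMP phosphodiesterase (16.6 and 5.10).

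Podocyte genes were next read against these shares. The gene lists were chosen with earlier results of these data known, so their counts are a description. Of the 48 genes the study names as characteristic of podocytes, 11 (22.9%, 13.3 to 36.5) had an ADR-only promoter peak, 5 (10.4%) a PBS-only one and 38 (79.2%) a shared one. The median of the highest fold per gene was 5.69, against 5.01 over all coding genes with such a peak. Over all coding genes, 4.51% had an ADR-only, 8.51% a PBS-only and 42.4% a shared promoter peak. Shared peaks were thus more frequent in this list too. Other lists, though not all, also exceeded 4.51%, for instance cell cycle (17.9%) and basement membrane and matrix genes (17.4%). Genes were not matched for binding or for their number of starts. Among the podocyte genes, *Sept11*, a septin, had the highest ADR-only peak (fold 13.1), at -828 bp from an internal start. Its outer start had a shared peak of 36.4 in ADR and 45.0 in PBS. *Clic3* followed with 10.6. *Rhpn1* had 8.56 at an internal start with a WT1 match.

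*Pth1r* had 7.58 and *Tmem150c* 6.10, where the summit lay at -12 bp and held forkhead letters. *Tcf21*, a transcription factor of podocyte development, had a peak with a fold of 5.69 at -22 bp, and the nearest PBS peak was 6009 bp away. In *Synpo*, the gene of synaptopodin, an actin-associated protein, the ADR-only peak was a small neighbour of a high shared one. The *Synpo* peak had a fold of 4.19 and lay 132 bp from a PBS peak of 50.4, whose ADR counterpart had 37.6. The list also held *Thsd7a* (5.57), *Hoxc8* (5.14) and *Tdrd5* (4.70), whose peaks lay 537, 64 and 2812 bp from the nearest PBS peak. For 5 of the 11 genes no PBS peak lay at any promoter, which held for 52.1% of all coding genes with an ADR-only promoter peak.

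Of 29 genes that the study lists as followed in human disease, a number that differs from the one in its text, and which it picked using these samples so that they are no independent evidence, 6 (20.7%) had an ADR-only promoter peak and 2 a PBS-only one. Beside *Rhpn1*, *Pth1r* and *Tdrd5*, the genes with an ADR-only promoter peak were *Ddn*, *Foxl1* and *Tyro3*. The share over all coding genes was 4.51% for ADR-only and 8.51% for PBS-only promoter peaks. *Ddn*, which encodes the slit diaphragm-associated protein dendrin, had a peak with a fold of 7.195, beside a shared peak of 32.6 in ADR and 10.03 in PBS. *Foxl1*, itself a forkhead factor, had 6.43, with forkhead, LMX1B and WT1 letters in the same window. It had no PBS peak at its promoter, but a PBS peak of 30.3 lay 1550 bp away. *Tyro3*, a TAM receptor kinase, had 4.60 and 4.05.

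Among 41 slit diaphragm and inherited glomerular disease genes, 6 (14.6%) had an ADR-only and 7 (17.1%) a PBS-only promoter peak. Over all coding genes these shares were 4.51% and 8.51%. *Fat1*, a protocadherin of the slit diaphragm, stood highest with 11.6 and 10.5 at -730 and -104 bp from an internal start. The first held LMX1B and the second forkhead letters, and the nearest PBS peak was 7225 bp from the first. Its outer start had a shared peak of 9.28 in ADR and 12.9 in PBS. *Dlc1* (5.14), *Kank1* (5.13), *Coq6* (3.83), *Plce1* (3.50) and the polarity gene *Crb2* (3.13) were near or below the median of all members. In that order, the nearest PBS peak lay 2185, 4192, 44294, 158 and 3959 bp away. Of the 23 basement membrane and matrix genes, 4 (17.4%) had an ADR-only and 4 (17.4%) a PBS-only promoter peak. *Agrn*, the basement membrane heparan sulfate proteoglycan agrin, had 11.3 at an internal start and 5.49 at 32 bp from another, and *Lama5*, *Timp3* and *Nid2* had 5.92, 3.93 and 3.91. The *Agrn* peaks lay 2107 and 294 bp from PBS peaks of 5.33 and 8.07. Those of *Lama5*, *Timp3* and *Nid2* lay 4691, 226 and 98 bp from PBS peaks of 7.04, 5.51 and 4.09. Of 34 actin and focal adhesion genes, 5 (14.7%) had an ADR-only and 9 (26.5%) a PBS-only promoter peak. The ADR-only ones were led by *Pxn*, which encodes paxillin (8.0), and *Actn1*, an alpha-actinin (6.14).

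Injury pathways were counted next, in lists so small that each share rests on a few genes. Over all coding genes, 4.51% had an ADR-only and 8.51% a PBS-only promoter peak. In the 38 genes of the p53 and DNA damage response, 2 (5.26%) had an ADR-only and 2 (5.26%) a PBS-only promoter peak. The ADR-only share was thus near that over all coding genes. *Cdkn1a*, the p21 cell cycle inhibitor, had a peak with a fold of 11.8 at -416 bp from an internal start, 1465 bp from a PBS peak of 28.5, and *Xrcc6*, the Ku70 repair protein, had 4.02. At the other *Cdkn1a* start a shared peak had 5.28 in ADR and 19.7 in PBS. Of the 28 cell cycle genes, 5 (17.9%) had an ADR-only and 5 (17.9%) a PBS-only promoter peak. Beside *Cdkn1a*, the ADR-only ones were *Cdk2* (6.83, a peak also assigned to *Pmel*), *Rb1* (5.53), *Rbl2* (5.14) and *Ccnd1* (3.34). The *Cdk2*, *Rb1*, *Rbl2* and *Ccnd1* peaks lay 234, 169, 156 and 1607 bp from PBS peaks with folds of 5.80, 4.55, 8.59 and 14.3. A shared promoter peak was present as well at *Cdk2*, *Rb1* and *Rbl2*. Of 21 YAP and TEAD targets, 3 (14.3%) had an ADR-only and 4 (19.0%) a PBS-only promoter peak. The ADR-only ones were *Ptpn14*, a phosphatase that restrains YAP (8.32), *Tgfb2* (5.36) and *Amotl2* (3.94). In that order, the nearest PBS peaks lay 203, 34149 and 1053 bp away, with folds of 3.57, 4.11 and 32.3. Of 15 ADR targets and transporters, 2 (13.3%) had an ADR-only and 2 (13.3%) a PBS-only promoter peak. The topoisomerase gene *Top2b*, a target of ADR, had 6.10, and *Nqo1*, a quinone reductase, had 4.71.

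Of 22 podocyte transcription factors, 3 (13.6%) had an ADR-only and 3 (13.6%) a PBS-only promoter peak, with *Nr3c1*, the glucocorticoid receptor (4.20), beside *Tcf21*. Apart from the proximal tubule markers described below, the remaining lists had 2 members or fewer with an ADR-only promoter peak. They included *Acvr1* (4.78) of the TGF-beta and BMP pathway, *Gpx4* (4.19) of the oxidative stress response, *Rptor* (5.66) of autophagy, *Agt*, which encodes angiotensinogen (4.87), *Lhx1* (4.51) of kidney development and the parietal epithelial marker *Ncam1* (7.42). The *Acvr1*, *Gpx4* and *Ncam1* peaks lay 525, 305 and 347 bp from the nearest PBS peak. For *Rptor*, *Agt* and *Lhx1* the distance was 14444, 33324 and 3062 bp. None of 19 AP-1 and immediate early genes had one (upper Wilson bound 16.8%), although 17 of them (89.5%) had a shared promoter peak and 2 a PBS-only one. The same held for 22 cell death genes (18 shared, 3 PBS only) and 25 heat shock and unfolded protein response genes (24 shared, 1 PBS only). Over all coding genes the shares were 4.51% for ADR-only, 8.51% for PBS-only and 42.4% for shared promoter peaks.

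Markers of other kidney cells were counted as well. Peak lists hold no expression values, so these counts cannot tell which cells were sorted. Of 15 proximal tubule markers, 6 (40%, 19.8 to 64.3) had an ADR-only promoter peak, 0 a PBS-only one and 4 a shared one. For all 6 no PBS peak lay at any promoter, which held for 52.1% of all coding genes with an ADR-only promoter peak. *Slc5a12*, a lactate transporter, had a fold of 6.10, *Miox*, a myo-inositol oxygenase, 5.01, and the phosphate transporter *Slc34a1* 4.87, 4.21 and 3.77 at 3 starts. *Slc27a2* had 4.02 and *Gatm* 3.68. These peaks were low, and 5 of the 6 genes had a highest peak below the median fold of the members. They occur in the same list as the podocyte genes, and their part in those counts was not tested. Endothelial (15), mesangial and pericyte (14), distal tubule and collecting duct (15) and immune (15) markers had 0 genes with an ADR-only promoter peak, with 1, 3, 0 and 0 PBS only. The 14 olfactory, muscle and neuron genes had none in either class. In all, 8 of the 25 lists had no ADR-only promoter peak. These hold 14 to 25 genes each, and the share over all coding genes was 4.51%, so an empty list is not read as a result.

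**Figure D5:**
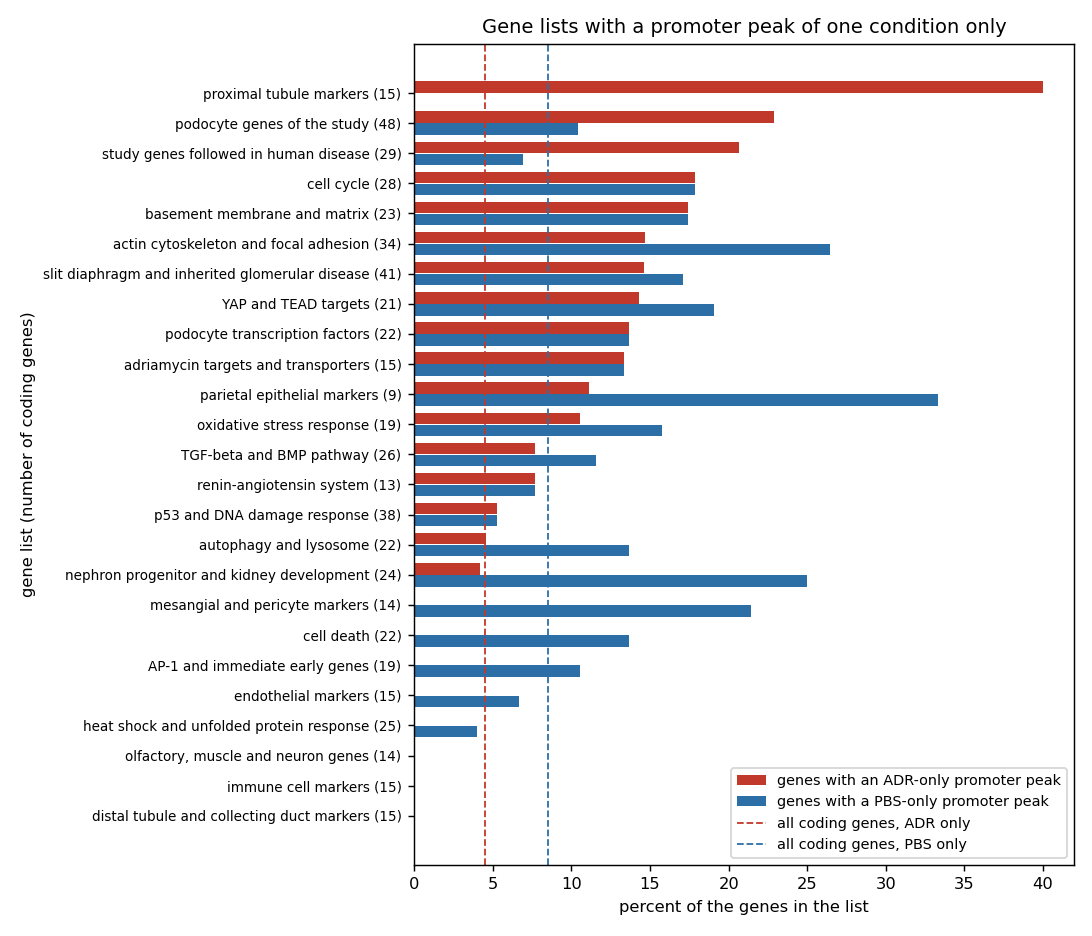
Percent of the genes in each of 25 lists with an ADR-only and with a PBS-only promoter peak; dashed lines give all coding genes (4.51% and 8.51%), and the number of genes stands after each name. Proximal tubule markers (40%) and the 48 podocyte genes (22.9%) lead the ADR-only bars, and the lowest 8 lists have no ADR-only bar.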

How the data were processed

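FOXC2 ChIP-seq peaks of sorted mouse podocytes were analysed from the deposited lists, 1 for ADR and 1 for PBS. For each sample, the authors trimmed the 50-bp reads and mapped them to GRCm38. Peaks came from nf-core/chipseq, and the 3 samples of a condition were then combined. Neither the peak caller's version nor its cutoff is given in the sources used here. Each deposited peak has a whole-number score (not used), a fold enrichment (a ratio to the local control), the −log10 p (not used) and the −log10 q. Peak ends lie within GRCm38 chromosome lengths. Starts came from GENCODE M21 and sequence from RefSeq GRCm38. A base shared between intervals made a peak shared.

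Shares carry 95% Wilson intervals and differences Newcombe intervals, and a difference was called when its interval excluded 0. Neighbouring peaks and starts of the same gene are not independent, so intervals are likely too narrow. Overlaps, positions, motif search and intervals were tested on simulated intervals and sequences. Members and lists were chosen with earlier results of these data known. Named were the 15 highest folds, up to 5 members per list by fold, the 5 highest with forkhead, LMX1B or TEAD letters, up to 10 genes with several members and the peaks nearest to the limits of the rule. Other list members are named as examples. Some members are counted but their values or sequences are not reported here. Repeats, splits by start and places in genes were added after seeing the data. The alternatives were stricter lists, other overlap rules, other promoters, peak midpoints, narrower motif windows and standardisation over 5 bins of GC content, fold or distance. Python 3.11.15, NumPy 2.4.6, pandas 2.3.3, SciPy 1.17.1 and matplotlib 3.10.9 were used.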

Additional observations from a re-analysis of the deposited data

How the results depend on the processing

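No paired analysis was possible because the deposited lists pool the samples of a condition, so leaving out each sample in turn was not run. Values below are in the units of the report, with differences in percentage points, ADR-only minus the other peaks. Of 292 values computed under the alternatives, 212 stayed as they were: an interval that excluded 0 still did so with the same sign, an interval that included 0 still did so (9 of these with another sign), a share stayed within its main interval, or a count within 1.5 times the main count.

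The number of ADR-only promoter peaks was 759 with a −log10 q of at least 5 for ADR peaks only, 793 among the 20000 peaks of smallest q in each list, 1964 when only PBS summits within 200 bp counted, 2342 when a shared peak needed 50% overlap, 665 at basic coding transcripts and 489 at coding gene records. The number of coding genes was 593 with the cutoff on ADR peaks, 1671 with the summit rule, 1894 with 50% overlap and 515 at gene records. The median fold was 6.09 with the cutoff on ADR peaks, 5.96 with q in both lists, 9.22 in the top 20000, 5.17 without a PBS peak within 1 kb, 5.43 with the summit rule, 6.26 with a fold of at least 5, 5.36 with 50% overlap, and 4.87 at basic transcripts and at gene records. The share of ADR promoter peaks without a PBS peak was 7.43% with the cutoff on ADR peaks, 12.3% with q in both lists, 12.9% in the top 20000, 7.30% without a PBS peak within 1 kb, 16.6% with the summit rule, 16.5% with a fold of at least 5, 12.9% for promoters 1 kb to each side, 8.96% for promoters 500 bp upstream, 19.8% with 50% overlap, 7.28% at basic transcripts and 6.89% at gene records. The share of summits over 500 bp away was, in the same order, 26.9%, 19.98%, 20.3%, 20.8%, 19.3%, 17.1%, 32.1%, 0% by construction, 19.1%, 16.4% and 17.2%.

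The CpG-rich difference from PBS-only peaks turned round to 3.92 with the summit rule, 3.14 with 50% overlap, 9.22 at basic transcripts and 10.5 at gene records. It excluded 0 at -18.3 with the cutoff on ADR peaks, -5.90 with q in both lists, -20.04 in the top 20000 and -4.48 for promoters 1 kb to each side. The KLF difference from PBS-only peaks turned round to 4.48 at basic transcripts and 5.38 at gene records, and was -6.73 with the cutoff on ADR peaks.

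At basic transcripts and gene records the differences from PBS-only peaks no longer excluded 0 for forkhead (1.78 and 0.930), LMX1B (0.135 and 0.384) and TEAD letters (0.716 and 1.48). TEAD also lost its call against PBS-only peaks with the summit rule (0.978), for promoters 500 bp upstream (0.0956), with 50% overlap (0.967) and at equal GC content (1.48), and against shared peaks for promoters 500 bp upstream (0.959) and at equal GC content (0.669). The WT1 difference from PBS-only peaks excluded 0 with q in both lists (-3.59), without a PBS peak within 1 kb (-4.73), with a fold of at least 5 (-2.87), at peak midpoints (-3.01), for promoters 1 kb to each side (-2.38) and 500 bp upstream (-3.36), at equal distance (-2.76) and fold (-3.42), at basic transcripts (-5.17) and at gene records (-4.79). The AP-1 difference from shared peaks excluded 0 with q in both lists (-1.08), without a PBS peak within 1 kb (-1.28), with a fold of at least 5 (-1.01), for promoters 1 kb to each side (-1.15), at equal GC content (-1.77) and at equal distance (-1.14). The cause was not tested for any of these. Leaving out windows at least 50% in masked repeats, an alternative chosen after seeing the data, changed none of the motif calls. The AP-1 difference from PBS-only peaks ran from -8.30 to -3.78 and the forkhead difference from shared peaks from 3.48 to 14.0, and both excluded 0 under each alternative run. Read depth, and thus the precision of each call, is unknown.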

Other observations

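Gene families outside the lists were counted by symbol, as a description beside the 4.51% of all coding genes with an ADR-only promoter peak and the 8.51% with a PBS-only one. Of 39 Hox genes, which pattern the body axis, 6 (15.4%) had an ADR-only promoter peak and 7 (17.9%) a PBS-only one. Of 371 solute carriers, 26 (7.01%) had an ADR-only and 32 (8.63%) a PBS-only one, with the highest ADR-only fold, 8.43, at *Slc39a14*. Zinc finger genes named Zfp had 15 of 394 (3.81%) with ADR-only and 39 (9.90%) with PBS-only promoter peaks, and respiratory chain genes 3 of 94 and 11 of 94. None of 45 proteasome subunit genes and none of 67 histone genes had an ADR-only promoter peak, while 6 and 2 had a PBS-only one. Of 1135 olfactory receptor genes 1 had an ADR-only promoter peak (*Olfr159*, fold 8.29) and 0 a PBS-only one.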
